A study of Oryza sativa with 156 samples.

Results

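By its median difference, a set of 150 rice leaf genes was lower in drying than in irrigated plants early in 2 drying courses. Late in both courses it was level with or above the irrigated plants. The genes were chosen from 55986 identifiers of the count table by that change. For each identifier the difference (drought minus control) of the mean log2(1 + CPM) was taken, CPM being counts per mega count of the library. Of 12067 identifiers with a mean CPM of at least 5, 2696 lay below 0 on days 1-4 of the moderate course and on days 3-5 of the severe course. A late difference (days 9-12) above -0.2 in the moderate course was met by 1421 of these. The 150 with the largest gain were taken, the gain being the late minus the early difference in the course where it was smaller. All 150 passed the filter on low counts that left 19338 genes for testing.

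The plants were of the cultivar IR64, and leaf polyA RNA was sequenced on each day from day 0 to day 12. In moderate drought the water supply ended 14 days after sowing and water left the pot through its hose, and in severe drought pots were set higher than the hose, which sped up drainage. Each course had its own control plants that stayed irrigated, and each combination of course, arm and day held 3 libraries. Seeds were planted singly in pots, but the labels do not say whether replicates were separate plants, and p-values reflect no more than the spread of these libraries, which may be technical.

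When soil dries, leaves close their stomata under the hormone abscisic acid, growth slows, and transcripts of growth and photosynthesis commonly fall while those of protection rise. Some transcripts respond to the first loss of water and then return, and leaves also change with age whether watered or not, so a difference between dried and watered leaves can shrink through either arm. In whole leaf RNA, fewer cells of a type and less RNA per cell cannot be told apart. The files do not pair the identifiers with names, so the roles of the 150 genes are not given, and the leaf label could not be checked against marker genes.

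Total counts ranged from 6.42 to 26.2 M per library with a median of 16.8 M. Some features of the libraries touch the results. By the mean log2(1 + CPM) of 3 marker genes, LOC_Os01g57960, LOC_Os01g49370 and LOC_Os06g39708, 49 libraries lay at 6.09 or above, 106 at 4.68 or below and 1 between, at 5.44. To the higher set belonged severe controls from day 3 on, severe drought leaves up to day 5 and the moderate day 0 drought library of replicate 2, and the library between was replicate 3 of the severe control on day 0. The arms of the severe course thus lay in different sets on days 1-2 and 6-12, and in the same set on days 3-5. None of the markers is among the 150 genes. Replicate 3 of severe day 6 lay on the other arm's side for the 150 genes in both arms, although the markers put both libraries in the set of their own arm. Finally, identifiers beginning LOC_Os10, LOC_Os11 and LOC_Os12, 11684 in all, read 0 in every library, so none of the 150 genes could come from them.

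The values that chose the genes are described here without a test. The early difference had a median of -0.78 in the moderate course (range -1.77 to -0.08) and -0.63 in the severe course (range -2.36 to -0.00). It lay within 0.2 of 0 for 8 genes in the moderate course and for 20 in the severe course. Late, the median difference was 0.07 in the moderate course, with 90 genes above 0 and 102 within 0.2 of it, and 0.46 in the severe course, with 143 genes above 0. In the moderate course most of the set had therefore returned to the level of irrigated leaves. In the severe course most lay above that level, on days when its arms lay in different library sets. Both late differences were above 0 for 89 genes. The gain ranged from 0.62 to 2.19 with a median of 0.81, and it was set by the moderate course for 121 genes. The last genes taken, LOC_Os02g09590 and LOC_Os02g57020, had a gain of 0.622, and the first left out, LOC_Os02g33450 and LOC_Os02g06700, had 0.621 and 0.620, so the edge of the set is not a gap in the data.

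The mean level of the 150 genes is given here by library on the days that chose them. A low drought level early and a gain late thus follow from the choice. On day 1 of the moderate course the drought libraries stood at 5.44, 5.51 and 5.69 and the controls at 6.91, 6.71 and 6.32 on the log2(1 + CPM) scale. On days 1-4 the 12 drought libraries ran from 5.44 to 6.53 with a median of 6.26, and the 12 control libraries from 6.32 to 7.33 with a median of 6.91. The arms overlapped on those days only where a control library of day 1 lay below drought libraries of other days. On days 9-12 the drought libraries ran from 6.34 to 7.10 with a median of 6.97, which lay above the highest control. The controls ran from 6.44 to 6.95 with a median of 6.69, within the range of the drought libraries. In the severe course the 9 drought libraries of days 3-5 ran from 6.12 to 6.70 and the controls from 6.62 to 7.53, and on days 9-12 the drought libraries ran from 6.70 to 7.34 and the controls from 6.13 to 6.95. The order of the arms in the severe course was thus turned round late, with an overlap between 6.70 and 6.95. The severe arms shared a library set on days 3-5 but not on days 9-12. Drought and the set cannot be told apart in this turn. Over the libraries of all days the genes together held 2.01% to 14.2% of a library's counts (median 7.27%).

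**Figure D1:**
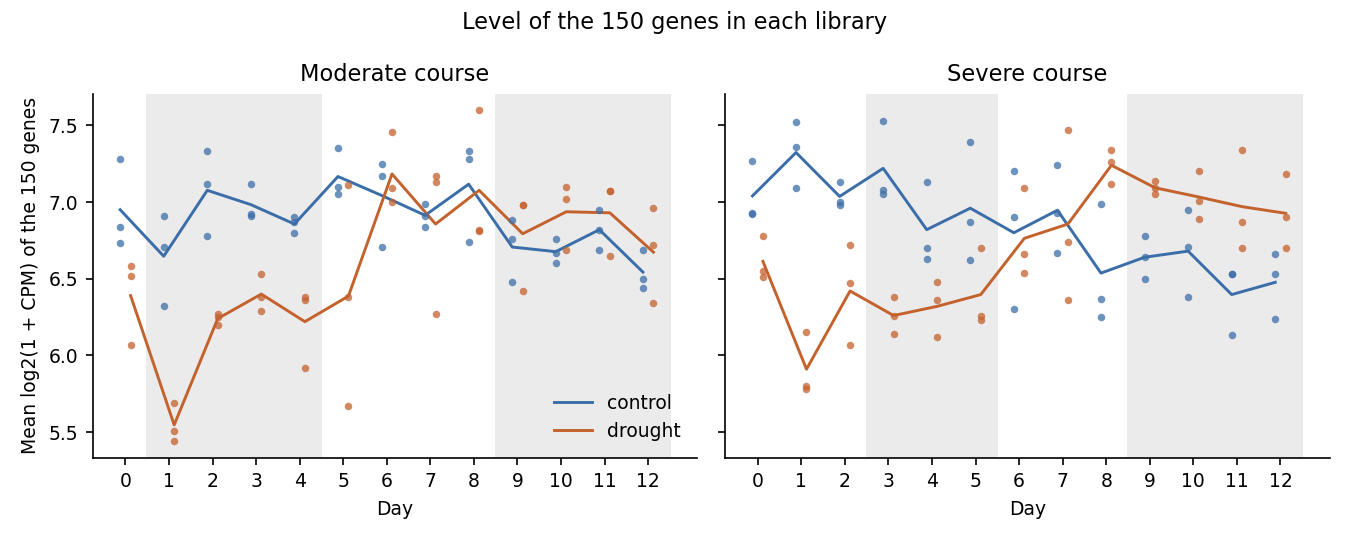
Mean log2(1 + CPM) of the 150 genes in each library (points) by day, with the mean of the 3 libraries of a group (lines), for control (blue) and drought (orange) in the moderate course (left) and the severe course (right); grey marks the days that chose the genes. The drought libraries of moderate day 1 sit between 5.44 and 5.69, those of moderate day 6 between 7.00 and 7.46, and those of severe day 8 between 7.12 and 7.34.

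The daily differences were also taken gene by gene. On day 2 of the moderate course, which chose the genes, 150 of 150 lay below 0. On days 5 and 6, which the choice did not use, 132 and 48 did. By the log2 fold changes of the tests below, 135 and 45 of the 150 lay below 0 on these days. Among all genes tested 46.9% and 52.9% did. In the map of daily differences the moderate columns turn from blue to pale after day 5 and the severe columns turn red from day 8.

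**Figure D2:**
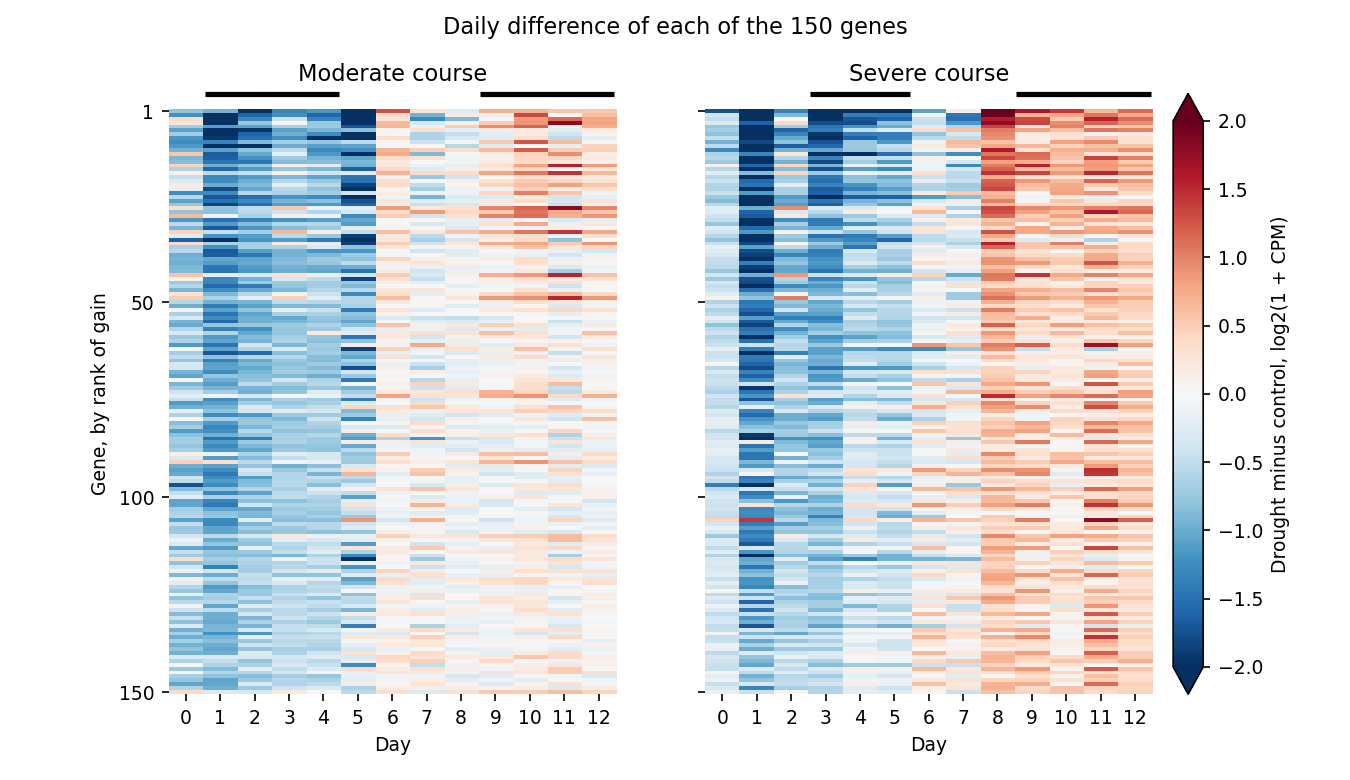
Difference of drought minus control in mean log2(1 + CPM) for each of the 150 genes (rows, in order of gain) on each day (columns) of the moderate (left) and severe (right) course; blue is lower and red higher in drought, colours end at -2 and 2, and black bars mark the days that chose the genes. Of the 150 rows, 132 are below 0 on moderate day 5 and 48 on moderate day 6.

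LOC_Os06g07790 had the largest gain, 2.19. On day 1 of the severe course, which the choice did not use, its drought libraries held 0.354, 0.0931 and 0.774 CPM and its controls 37.1, 39.1 and 18.2 CPM. No drought library came near a control library that day. The log2 fold change was -6.52 (SE 1.64, adjusted p = 0.00084, edgeR quasi-likelihood). On day 5 of the moderate course the drought libraries were far apart, with 0 counts in replicates 1 and 3, which allow up to 0.340 and 0.165 CPM, and 41.7 CPM in replicate 2, against 12.3, 27.0 and 35.2 CPM in control. On days 5-8 of the moderate course together its log2 fold change was 0.37 (SE 0.52, adjusted p = 0.64, edgeR), and without replicate 2 it turned to -2.98 (adjusted p = 0.039). Without replicate 2 the day 5 drought group held 0 counts only, and the fold change is a mean over the days. The turned value is therefore no measure of days 6-8. With all libraries the gene's log2 fold changes on those single days were 0.73, 1.41 and 0.16, none called. By day 8 of the severe course its drought libraries held 23.4, 26.7 and 13.6 CPM and its controls 0.918, 9.33 and 0.788 CPM. The arms did not overlap, and the log2 fold change of 2.74 (SE 1.25) did not pass the test (adjusted p = 0.13, edgeR).

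LOC_Os01g13690, with the next largest gain of 2.16, is a more abundant transcript. On day 1 of the severe course its drought libraries held 10.5, 17.1 and 103 CPM and its controls 430, 598 and 199 CPM, with no overlap between the arms (log2 fold change -3.64, SE 0.87, adjusted p = 0.00046, edgeR). On days 6-8 of the severe course its 9 control libraries ran from 20.9 to 608 CPM with a median of 116 and its 9 drought libraries from 16.9 to 356 CPM with a median of 238. The arms overlapped throughout, and the log2 fold change was 0.18 (SE 0.45, adjusted p = 0.82, edgeR). Libraries of a single group were far apart on those days, and on day 7 the controls held 608, 180 and 67.8 CPM.

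**Figure D3:**
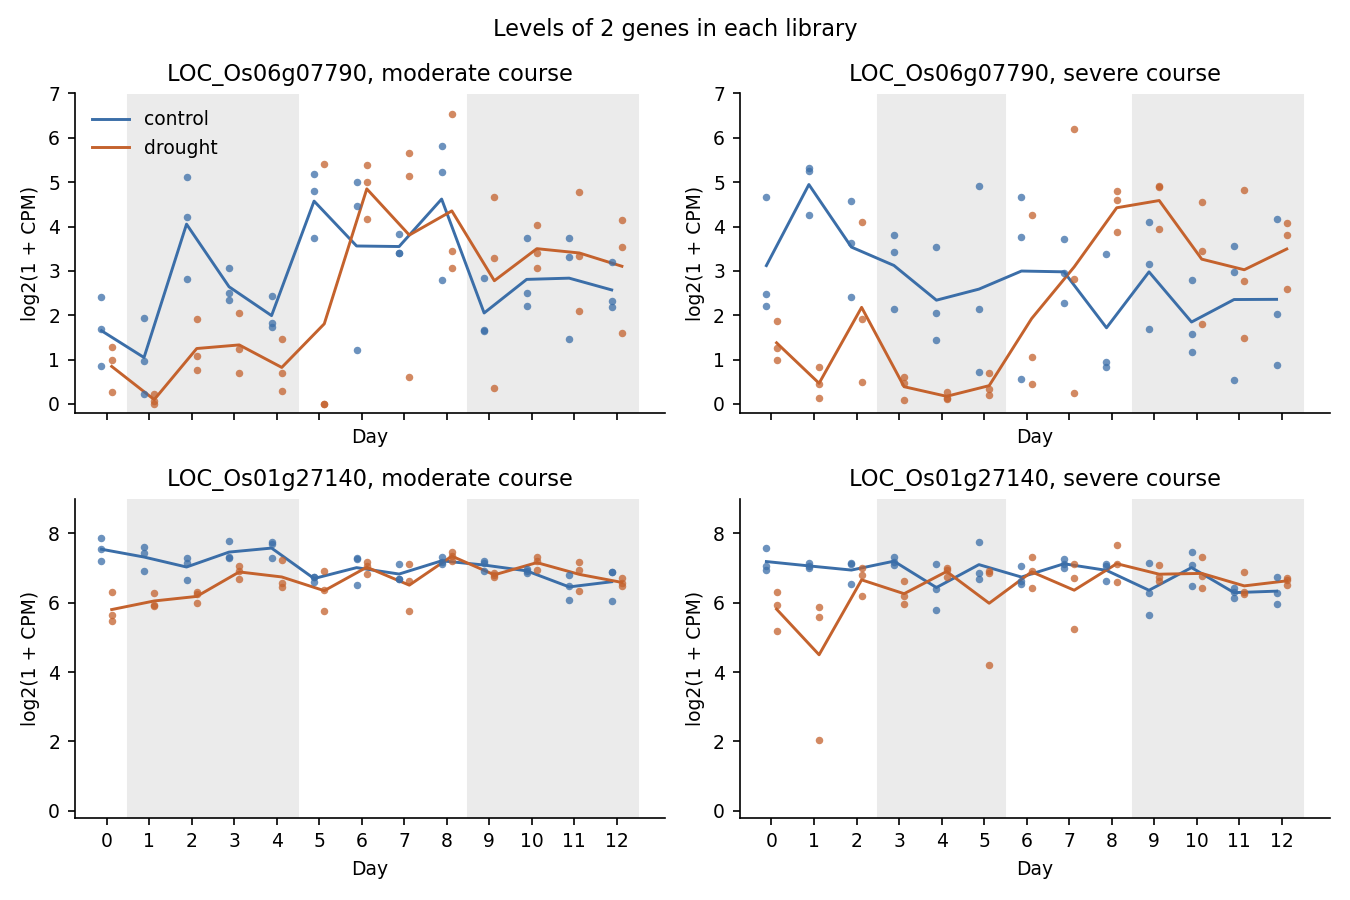
Level of LOC_Os06g07790 (top) and LOC_Os01g27140 (bottom) in each library as log2(1 + CPM) by day, with group means as lines, control in blue, drought in orange and grey for the days that chose the genes. LOC_Os06g07790 has drought libraries of 0.354, 0.0931 and 0.774 CPM on severe day 1, and LOC_Os01g27140 stands lower in all drought libraries than in any control library on day 0 of both courses.

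Tests were made on days that did not choose the genes, over all 19338 genes, and a gene is called where the Benjamini-Hochberg adjusted p of edgeR's quasi-likelihood test lies under 0.05. The strongest of these results was on days 1-2 of the severe course. There 133 of the 150 genes were lower in drought and 0 higher, while 18.4% of all genes tested were called lower and 19.2% higher. The median log2 fold change was -1.21, against 0.04 over all genes. The 6 drought libraries ran from 5.78 to 6.72 in mean level and the 6 controls from 6.98 to 7.52, with no overlap. On day 1 alone 140 genes fell and 0 rose (17.1% and 19.1% of all genes) with a median log2 fold change of -1.80, and on day 2 alone 48 fell and 0 rose (4.83% and 3.53% of all genes) with a median of -0.73. The count for day 2 was 16 without replicate 1 (1.79% of all genes lower) and 5 without replicate 3 (0.599%). The count for days 1-2 stayed between 112 and 126 without any 1 replicate number, where 14.0% to 15.2% of all genes were lower. The arms of the severe course lay in different library sets on these days, so drought and the set cannot be told apart there.

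Of the genes named for days 1-2, LOC_Os03g54040 had 6.03, 3.26 and 6.20 CPM in drought on day 1 and 39.9, 72.7 and 31.2 CPM in control. On day 2 it had 6.97, 17.4 and 8.07 CPM in drought and 32.6, 24.8 and 41.5 CPM in control. All 6 drought libraries lay below all 6 controls (log2 fold change -2.61, SE 0.30, adjusted p = 1.4e-11, edgeR). LOC_Os06g07790 had a log2 fold change of -3.74 over both days (SE 1.02, adjusted p = 0.0019, edgeR), which was no longer called without replicate 1 (adjusted p = 0.062). A single gene of the 150 stood above 0, LOC_Os03g04970, chosen after its values were seen. On day 1 it held 37.7, 22.6 and 15.6 CPM in drought and 7.07, 8.79 and 8.76 CPM in control, and its log2 fold change of 1.26 did not pass the test (adjusted p = 0.082, edgeR). On day 2 its log2 fold change was -0.77 (adjusted p = 0.46) and over both days 0.24 (adjusted p = 0.68, edgeR).

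**Figure D4:**
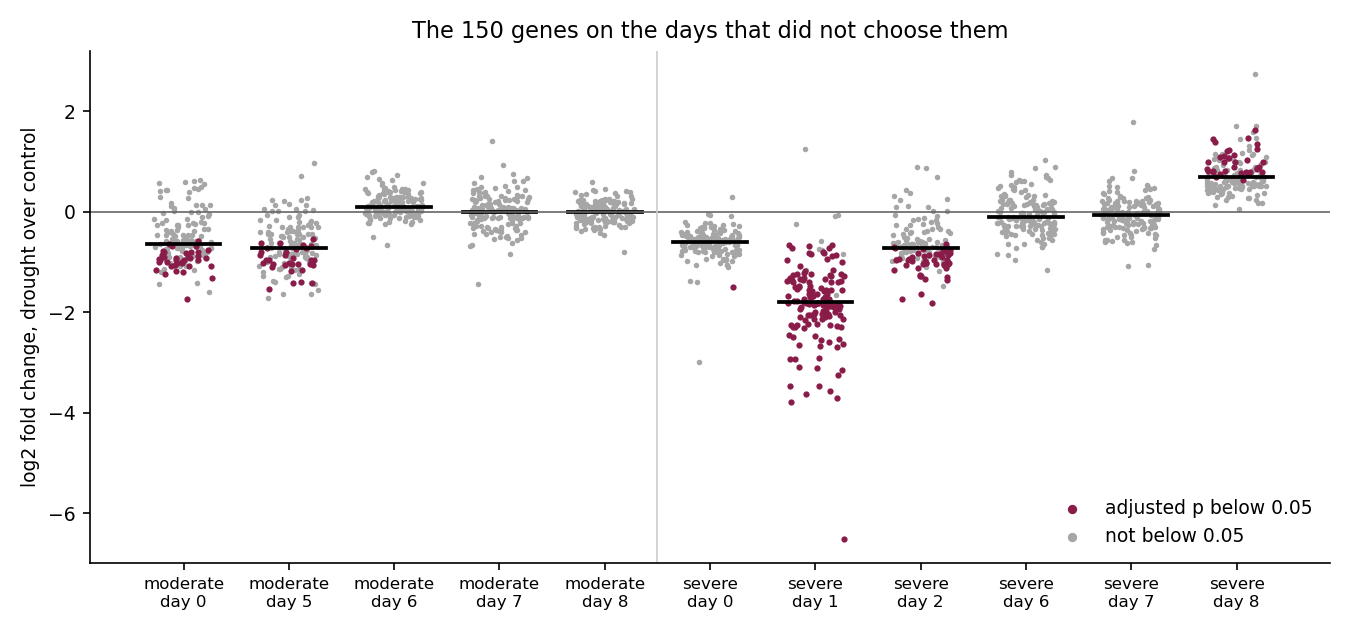
Log2 fold change of drought over control for each of the 150 genes (points) on each single day that did not choose them, with the median as a bar and genes with an adjusted p below 0.05 in edgeR's quasi-likelihood test in dark red. The medians run from -1.80 on severe day 1 to 0.70 on severe day 8, and those of moderate days 6, 7 and 8 lie at 0.11, -0.00 and -0.01.

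The arms differed in these genes at the start. On day 0 of the moderate course 37 genes were lower in drought and 0 higher, against 3.01% and 1.68% of all genes, and the median log2 fold change was -0.65. The drought libraries stood at 6.07, 6.52 and 6.58 in mean level and the controls at 6.84, 6.73 and 7.28, with no overlap. All 37 were also among the 133 lower on days 1-2 of the severe course, which is 27.8% of the latter, as were 88.7% of the whole set, and these comparisons share no library. The count was 8 (0.522% of all genes lower) without the replicate 2 drought library of that day, which lay in the higher library set. It was 1 without all replicate 1 libraries and 0 without those of replicate 2 or of replicate 3, while the median stayed between -0.83 and -0.51. Over all genes the lower calls then made up 0.225%, 0% and 0.00517%.

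On day 0 of the severe course 1 gene was lower (0.450% of all genes) and 0 higher (0.858%), with a median of -0.59. Here 149 of the 150 genes stood below 0 and 54 of the 150 had an unadjusted p under 0.05, against 48.2% of all genes below 0 and 3031 of 19338 with such a p. The mean levels were 6.78, 6.51 and 6.55 in drought and 7.27, 6.92 and 6.93 in control. The arms did not overlap, although few differences of single genes passed the test, and they lay in different library sets apart from the control library between the sets. The gene called was LOC_Os01g27140, which is shown with LOC_Os06g07790 in the plots by library. It held 78.2, 60.4 and 35.6 CPM in severe drought and 189, 132 and 121 CPM in severe control on day 0 (log2 fold change -1.50, SE 0.41, adjusted p = 0.041, edgeR). In the moderate course it held 78.3, 43.0 and 48.8 CPM in drought and 187, 147 and 231 CPM in control on that day (log2 fold change -1.73, SE 0.41, adjusted p = 0.010, edgeR). In neither course did the arms overlap, but the moderate call ended without any 1 replicate number (adjusted p 0.086 to 0.093) and the severe call without replicate 1 (0.37) or replicate 2 (0.21). LOC_Os05g43040 was also lower on moderate day 0, at 12.0 ± 3.77 CPM against 30.1 ± 12.2 CPM (SD, n = 3; log2 fold change -1.32, adjusted p = 0.046 by edgeR), a call that likewise ended without any 1 replicate number.

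Between the early and late stretches, on days 5-8 of the moderate course, 12 genes were lower in drought and 0 higher. Among all genes 14.5% were lower and 14.2% higher, and the 12 make up 8.00% of the set, whose median log2 fold change was -0.14. This share lies below that of all genes, and the difference of the shares was not tested. The mean over these days joins different days. On day 5 alone 33 genes were lower (6.39% of all genes) and 0 higher (6.36%), with a median of -0.72. The drought libraries of day 5 stood at 6.38, 7.11 and 5.67 in mean level and the controls at 7.05, 7.35 and 7.10, so replicate 2 lay within the range of the controls and the other drought libraries below it. Without the replicate 2 libraries 78 genes were called on day 5 (7.64% of all genes were then lower), and without replicate 1 there was 1 (1.10%). Without replicate 3 none of the 19358 genes tested was called (2898 at an unadjusted p under 0.05).

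On single days from 6 to 8 of the moderate course edgeR called none of the 150 genes. The counts were 0 on day 6 (1.17% of all genes lower, 1.09% higher), 0 on day 7 (1.99% and 2.63%) and 0 on day 8 (0.165% and 0.434%). At an unadjusted p under 0.05 they were 1, 4 and 0, and DESeq2 on the libraries of the day called 0, 5 and 0, and edgeR on those libraries alone 0, 2 and 0. The medians were 0.11, -0.00 and -0.01, and the drought libraries of days 6-8 ran from 6.27 to 7.60 in mean level around the controls at 6.71 to 7.33. The change from day 5 to days 6-8 was itself tested, as a difference of the drought minus control differences. It was above 0 for 148 genes with a median of 0.76, and 68 had an unadjusted p under 0.05, while 52.2% of all genes lay below 0 and 3113 of 19338 had such a p. After adjustment edgeR called 0 of the 150 genes and 0% of all genes, and DESeq2 0. Between day 5 and days 6-8 the median thus moved without a call on any single gene.

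Against day 0 the change was called more often. The moderate difference of days 6-8 was higher than that of day 0 for 30 genes and lower for 0 (2.63% and 1.18% of all genes), with a median of 0.64. The genes higher were 14 without the replicate 2 drought library of day 0 (1.09% of all genes) and 10 without replicate 1 (0.706%). They were 0 without replicate 2 or replicate 3, where 0% and 0.0568% of all genes were higher.

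Of the genes lower on days 5-8 of the moderate course, LOC_Os05g50850 had 1.37 to 8.78 CPM in the 12 drought libraries with a median of 4.07, and 4.88 to 10.5 CPM in the 12 controls with a median of 8.36. The arms overlapped between 4.88 and 8.78 CPM (log2 fold change -1.01, SE 0.23, adjusted p = 0.00043, edgeR). LOC_Os02g49870 had 107 to 534 CPM in drought with a median of 362 and 291 to 638 CPM in control with a median of 474 (log2 fold change -0.59, SE 0.22, adjusted p = 0.035, edgeR). That call ended without replicate 1 (adjusted p = 0.14) and without replicate 3 (0.47). The count of 12 was itself 3 without replicate 1, 52 without replicate 2 and 1 without replicate 3. Of all genes, 10.6%, 11.5% and 7.41% were then called lower.

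In the severe course the order of the arms had turned by day 8. On that day 35 genes were higher in drought and 0 lower, against 5.54% and 6.48% of all genes, and all 150 stood above 0 with a median log2 fold change of 0.70. The drought libraries stood at 7.12, 7.34 and 7.26 in mean level and the controls at 6.25, 6.99 and 6.37, with no overlap. The count was 16 without replicate 1 (2.91% of all genes higher), 16 without replicate 2 (1.64%) and 0 without replicate 3 (1.56%). The median stayed between 0.56 and 0.98. On day 6, 0 genes were called (1.73% of all genes lower, 1.33% higher) and 13 had an unadjusted p under 0.05, and on day 7, 0 were called (2.97% and 1.97%) and 2 had one. DESeq2 on the libraries of the day called 0 on both. Day 6 turned on its replicate 3 libraries. Controls stood at 7.20, 6.90 and 6.30 and drought libraries at 6.66, 6.54 and 7.09 in mean level, so that replicate 3 had the lowest control and the highest drought library. Without those libraries 33 genes were lower and 9 higher on day 6, when 10.1% and 10.7% of all genes were called.

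Over days 6-8 of the severe course 23 genes were higher and 0 lower (11.4% and 11.3% of all genes), with a median of 0.19. The 23 are 15.3% of the set, close to the share among all genes, while calls in the other direction were lacking. Without replicate 2 the count was 12 (4.52% of all genes higher). Without the replicate 3 libraries of day 6 there were 24 higher and 2 lower (14.5% and 13.9% of all genes), with a median of 0.01. LOC_Os09g32500 ran from 5.74 to 17.4 CPM in the 9 controls with a median of 8.84 and from 7.65 to 22.9 CPM in the 9 drought libraries with a median of 15.9 (log2 fold change 0.89, SE 0.22, adjusted p = 0.0014, edgeR). LOC_Os03g14530 ran from 5.65 to 12.8 CPM in control with a median of 8.55 and from 8.90 to 21.0 CPM in drought with a median of 14.7 (log2 fold change 0.76, SE 0.19, adjusted p = 0.0012, edgeR). The arms overlapped for both genes, and both calls ended without replicate 2 (adjusted p 0.11 and 0.16). On severe days 3-5, which chose the genes, the difference was -0.265 for LOC_Os09g32500 and -0.025 for LOC_Os03g14530. The latter was thus near level with the controls early in this course.

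The arms lay in different library sets on days 6-8, and a comparison within the lower set gave another picture. Severe drought on days 6-8 was set against severe controls of days 0-2, less the change of moderate controls between day 0 and days 6-8. In this comparison 22 genes were lower and 19 higher, against 9.22% and 9.56% of all genes, and the median was -0.44. Without the replicate 3 libraries of severe day 6 the genes lower were 48 and those higher 20, against 12.6% and 11.7% of all genes. Without replicate 1 there were 0 lower and 17 higher (2.32% and 3.46%), without replicate 2 there were 0 and 7 (1.14% and 2.46%), and without replicate 3 there were 38 and 6 (7.80% and 7.23%). It compares different days, and the controls start from days 0-2 in the severe course but from day 0 alone in the moderate course. It also includes the severe control library that lay between the sets. Which direction held more calls within the lower set thus depended on the libraries used, and between the sets, drought and library set cannot be told apart on these days.

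The courses were also compared with each other on days 6-8. Between the severe and the moderate difference, 0 of the 150 genes were called (0.631% of all genes lower, 0.0465% higher), with 2 at an unadjusted p under 0.05 and 0 by DESeq2. It lay above 0 for 133 genes with a median of 0.17, which became -0.24 without replicate 3 and 0.50 without replicate 2. A difference between the courses was therefore not detected on these days, and the median took its sign from which libraries were in.

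How far each arm made the gain is described without a test, since these days chose the genes. Drought leaves were higher late than early for all 150 genes in both courses, with a median change of 0.67 in the moderate and 0.60 in the severe course on the log2(1 + CPM) scale. Irrigated leaves were lower late than early for 133 genes in the moderate course (median -0.20) and for 148 in the severe course (median -0.41). The change of the drought leaves was the larger part of the gain for 146 genes in the moderate course and for 119 in the severe course. The moderate libraries of these days all lay in the lower set and the severe controls of these days all in the higher set. The severe drought libraries passed from the higher to the lower set between the stretches.

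**Figure D5:**
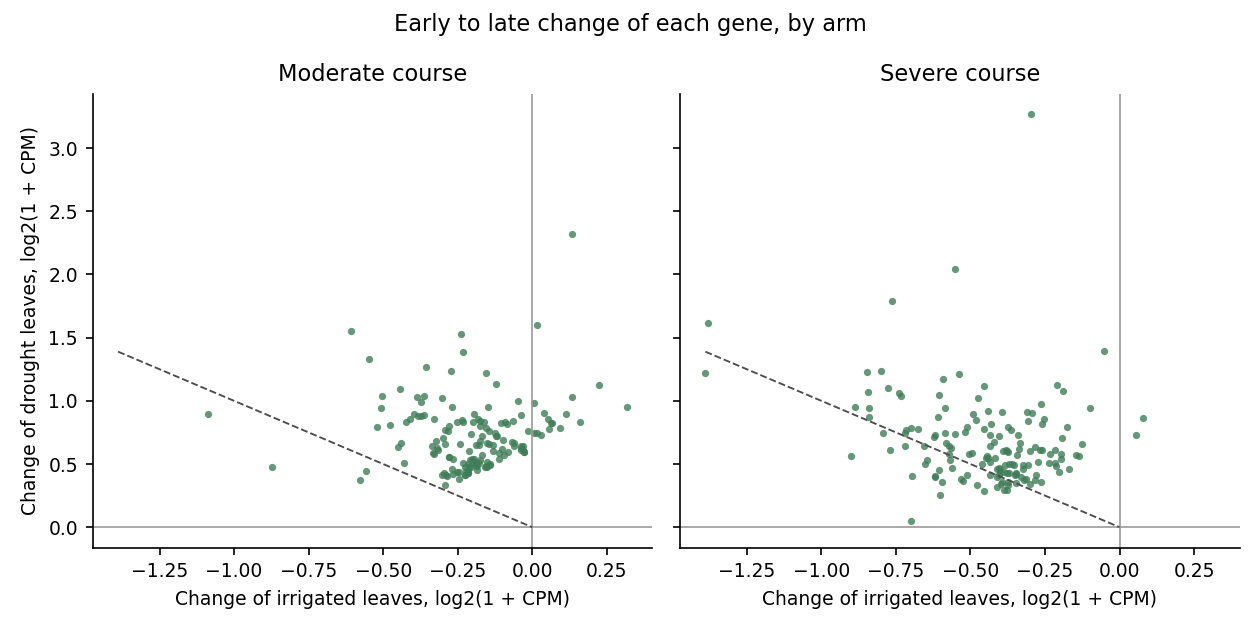
Change from the early to the late stretch in irrigated leaves (x axis) and drought leaves (y axis), in mean log2(1 + CPM), for each of the 150 genes in the moderate (left) and severe (right) course; on the dashed line both arms change by the same amount in opposite directions. Above the dashed line lie 146 genes in the moderate and 119 in the severe course.

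Drought leaves and irrigated leaves were followed separately in days that the choice did not use. From day 0 to days 5-8 of the moderate course 64 genes rose and 0 fell in drought leaves (9.48% and 9.83% of all genes), with a median log2 fold change of 0.56. In irrigated leaves 9 fell and 1 rose (3.79% and 2.31% of all genes), with a median of 0.23. A rise in drought leaves was called for 22 genes without the replicate 2 drought library of day 0 (3.56% of all genes). It was called for 8 without replicate 1 (with 1 lower; 4.54% of all genes higher) and for 3 without replicate 2 (1.29%), shares near those of all genes, and the median stayed between 0.42 and 0.75. Calls in irrigated leaves numbered 0 without replicate 2 or replicate 3 and 6 without replicate 1. Over all genes the lower calls then made up 0.882%, 0.119% and 1.75%, and the higher calls 0.274%, 0.0413% and 0.895%. Of the genes that changed in irrigated leaves, LOC_Os03g04970 fell from 48.6, 50.7 and 53.4 CPM on day 0 to a median of 17.8 CPM in the 12 libraries of days 5-8, the lowest of which held 11.9 CPM and the highest lay within the day 0 range (log2 fold change -1.28, SE 0.40, adjusted p = 0.039, edgeR). LOC_Os06g16290 fell from 28.7 ± 6.77 CPM (SD, n = 3) to 14.1 ± 4.10 CPM (SD, n = 12; adjusted p = 0.027, edgeR). LOC_Os08g44770 rose from 188, 136 and 162 CPM to 195 to 432 CPM with a median of 283, and its day 0 libraries all lay below the later ones (log2 fold change 0.92, SE 0.27, adjusted p = 0.026, edgeR). Each of the 3 calls ended without replicate 2 and without replicate 3, and that of LOC_Os03g04970 also without replicate 1.

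The set can be split by its late moderate difference, a value that the choice used, with 48 genes above 0.2 and 102 at or below it. The split concerns the moderate course only, since 123 of the 150 genes had a late severe difference above 0.2. To reach the gain of the set, a gene with a lower late moderate difference needed a lower early one. Differences between the kinds on other early days may thus follow from the choice. Counts on other days are given as a description, and the shares of all genes called on those days are given above. On day 0 of the moderate course 3 of the 48 and 34 of the 102 were called lower, with medians of -0.15 and -0.73. On day 2 of the severe course 1 of the 48 and 47 of the 102 were lower, with medians of -0.32 and -0.83. On day 1 of that course both kinds were lower, 45 of 48 and 95 of 102, with medians of -1.76 and -1.81. On day 8 of the severe course 11 of the 48 and 24 of the 102 were higher, with medians of 1.02 and 0.60. All 33 genes lower on moderate day 5 were among the 102, although the medians of both kinds were -0.72. No test of the difference between these kinds was made.

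Most of the genes varied together among libraries of a group. In the 30 moderate libraries of days 0 and 5-8, deviations from the group mean were taken. Each gene's deviation was correlated with the mean deviation of the rest of the set. The median r was 0.86, with 126 genes over 0.5 and 3 below 0. Among the 19188 other genes tested the median r with the set was -0.28, and 7.34% were over 0.5. In the 36 severe libraries of days 0-2 and 6-8 the median r was 0.76 for the set. Of its genes 104 lay over 0.5 and 22 below 0, with a lower quartile of 0.34. For other genes the median r was -0.36, and 4.39% were over 0.5. These values are a description over genes that share libraries, their depth and scaling. The spread within a group was also wide, with a median SD of 0.42 for the set and 0.21 for all genes tested in the moderate course. In the severe course these were 0.39 and 0.24. The genes are not alike in abundance, with a median mean CPM of 96.5 against 10.8, and log2(1 + CPM) narrows the spread at low CPM. The set was also chosen for large changes. A library in which the mean of the set stood high or low could therefore move many of its genes at once. Such libraries include replicate 3 of severe day 6 and replicate 2 of moderate day 5.

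The 150 genes were more abundant than most. Their mean CPM had a median of 96.5 (range 5.04 to 9970), against 10.8 for all genes tested and 48.4 for the 1421 that could have been chosen. LOC_Os01g41710, the highest, took 0.0253% to 3.14% of a library's counts. By identifier the set held 33 genes beginning LOC_Os03, 26 beginning LOC_Os02 and 19 beginning LOC_Os05, and 8 beginning LOC_Os04. In all, 14 genes formed 7 pairs whose identifiers differ by at most 100. Of these, LOC_Os07g37240 and LOC_Os07g37250 had an r of 0.90 between their deviations in the moderate libraries and 0.92 in the severe ones, while LOC_Os02g49680 and LOC_Os02g49690 had 0.27 and 0.10. These 4 and the highest gene were named after their values were seen, and whether reads of such neighbours can be told apart was not examined.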

How the data were processed

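The authors deposited 1 table of raw counts of reads per gene. Per the submitters' processing notes, STAR, featureCounts 2.0.0 and the build IRGSP-1.0 were used. Libraries came from a kit that keeps the strand, per the labels' protocols. Strand setting and handling of multi-mapped reads: not given in the sources used here. Whether overlapping or near-identical genes share counts is therefore not known. Another 4 columns belong to no sample and were not used. No columns were identical, and the least chi-square per gene between libraries of a group was 7.01. Of 55986 identifiers, 0 were found in the gene table of assembly ASM3414082v1, so planned gene lists, leaf markers and sequences could not be used.

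The genes, contrasts and lists were chosen with earlier results of these data known. Contrasts of single days, of days 6-8 against day 5 or day 0, of drought leaves alone and within the lower library set were added after the data were seen. CPM uses column totals, which shift the median difference of all genes by up to 0.30 (severe day 1). The tests used TMM, where it was at most 0.04. They were made on the counts with edgeR 4.0.16 (R 4.3.3): filterByExpr (minimum count 10, minimum total 15), glmQLFit and glmQLFTest on 52 groups with 104 residual degrees of freedom, Benjamini-Hochberg over 19338 genes. The SE was computed by dividing the size of the log2 fold change by the root of F. DESeq2 1.42.0 was an alternative. The fits were tested on simulated data. Floors for 0 counts use 3 counts and cover counting error only. Named genes are the 2 with the largest gain, those at the edge of the set, and for each planned contrast up to 2 in each direction that changed most, if called and of 1 sign on every day. Group means carry SDs over libraries.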

Additional observations from a re-analysis of the deposited data

How the results depend on the processing

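Counts of the 150 genes called kept within 1.5 times under DESeq2 size factors in every comparison, and 0 were called for the severe minus moderate difference, for days 6-8 minus day 5 and for moderate days 6 and 8 and severe day 7 in all settings run. With no filter on low counts the counts became 7 (from 12) for moderate days 5-8, 18 (from 37) for moderate day 0, 0 (from 1) for severe day 0, 4 (from 10) for moderate controls, 18 (from 33) for moderate day 5, 21 (from 35) for severe day 8, 17 (from 30) for days 6-8 minus day 0 and 27 (from 41) within the lower set. With edgeR on the libraries compared only they were 5, 13 (from 23, severe days 6-8), 0 for severe day 0, 0 for moderate day 5, 2 (from 0) for moderate day 7, 12 for days 6-8 minus day 0, 10 (from 64) for drought leaves and 26 within the lower set. DESeq2 on those libraries gave 81 for moderate day 0, 32 for severe day 0, 40 for moderate controls, 5 for moderate day 5, 5 for moderate day 7, 68 for severe day 8, 80 (from 48) for severe day 2 and 40 for drought leaves. A 1.5-fold minimum left 2 on moderate days 5-8 and 8 on severe days 6-8. Single doubted libraries left out gave 8 for moderate day 0, 14 for days 6-8 minus day 0, 22 for drought leaves, 42 (from 0) for severe day 6 and 68 within the lower set. Apart from these smaller tables and fewer samples, the cause was not tested. The share of all genes called is not given for most of these settings, nor for the blocks below. The counts thus describe the settings and not the 150 genes alone.

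Replicate numbers did not pair the libraries: same-numbered libraries of the arms correlated with r from -0.74 to 0.41, with 20 of 78 pairs over 0.1, and 45 libraries correlated best with their own number. A replicate block gave 18, 26, 133, 43 and 1 genes for moderate days 5-8, severe days 6-8, severe days 1-2 and day 0 of both courses, and 1 (from 0) for moderate day 7. Within course and day the block gave 31 for moderate days 5-8, 0 for severe day 0, 65 for moderate day 5 and 1 for moderate day 7.

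Without 1 replicate number the counts ranged from 1 to 52 for moderate days 5-8, 12 to 24 for severe days 6-8, 112 to 126 for severe days 1-2, 0 to 1 for day 0 of either course, 0 to 6 for moderate controls, 0 to 78 for moderate day 5, 0 to 38 for severe day 6, 0 to 16 for severe day 8, 117 to 134 for severe day 1, 5 to 41 for severe day 2, 0 to 10 for days 6-8 minus day 0, 3 to 63 for drought leaves and 7 to 44 within the lower set. The share of all genes called moved as well. Without replicate 3 the lower calls went from 1.73% to 9.75% of all genes on severe day 6. On moderate day 5 they went from 6.39% to 0%. These ranges are thus no result about the 150 genes alone. The rule for the set took 122 of the 150 genes again with TMM-scaled totals and 144 with severe days 3-4 as the early stretch. It took 115 to 117 without 1 replicate number. Of 468 values of named genes, 424 kept direction and call, 34 lost a call, 9 gained one, and 1 turned, that of LOC_Os06g07790 on moderate days 5-8 without replicate 2 (-2.98; 0.82 without replicate 3, the highest). Without replicate 2 the drought group of moderate day 5 held 0 counts only for this gene. Depth limits genes of few counts.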
